A study of Mus musculus with 12 samples.

Results

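The class II and class IV histone deacetylases of the mouse were followed across ventricular tissue that lacked Hdac2, Hopx or both. The family comprises 7 genes: Hdac4, Hdac5, Hdac7 and Hdac9 of class IIa, Hdac6 and Hdac10 of class IIb, and Hdac11, the sole member of class IV. Every probe set that the platform annotation assigns to 1 of these genes and to no other was taken, which gave 13 probe sets among 34958 single-gene probe sets, and 7 genes among 18194. Affymetrix expression arrays had been hybridised with RNA of cardiac ventricles from embryos at embryonic day 16.5, 3 independent ventricles from each of 4 genotypes. Beside wild type these were Hdac2-null, Hopx-null, and the double-null that lacks Hdac2 and Hopx together. Hdac2 encodes a class I deacetylase, and Hopx an unusual homeodomain protein of heart muscle, which acts through partner proteins and not through DNA. The alleles used, the strain and the sex of the embryos are not given in the sources used here.

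Class IIa deacetylases have little catalytic activity of their own and act mainly as signal-dependent corepressors. In the nucleus they bind MEF2 transcription factors and hold their target genes down, and they reach active deacetylase through the NCoR and SMRT corepressors. Kinases of the CaMK, protein kinase D and salt-inducible families phosphorylate them, after which 14-3-3 proteins bind them and they leave the nucleus. Hdac5 and Hdac9 are known as brakes on growth of the heart muscle, Hdac4 for its part in cartilage and muscle, and Hdac7 for its part in endothelial cells. Of class IIb, Hdac6 is a cytoplasmic enzyme that removes acetyl groups from tubulin and binds ubiquitin, and Hdac10 acts on acetylated polyamines. Hdac11 is a small enzyme that removes fatty acyl groups from proteins.

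The values are the deposited intensities on a linear scale, and a floor of 82.9 units, which is 0.1 times the average of 2% trimmed means over arrays, marks the range below which differences were not read. Between 37.5% and 37.9% of probe sets were above it on each array, and the correlation between pairs of arrays was 0.978 to 0.995. Hdac2 read 4604 to 5195 in wild type and 4.04 to 4.32 on the 6 arrays labelled as lacking it. Hopx read 8577 to 12220 in wild type and 1656 to 2066 on the 6 arrays labelled as lacking it, and a second Hopx probe set read 520.2 to 1145 and 9.70 to 13.3. All 13 ventricular cardiomyocyte markers were above the floor on all 12 arrays, and none of 6 neural and Schwann cell markers was on any. The liver markers Alb and Afp were above it on Hdac2-null 3 alone, at 176 and 205. Of 8 atrial markers, 6 were also above it on all arrays, and Myl7 stands in both lists. The atrial marker Sln ran from 41.3 on Hopx-null 2 to 1616 on wild type 1. These lists therefore do not show that the tissue was free of atrium. Xist, the RNA of the inactive X chromosome, read 4988 to 6130 on 5 arrays, which were replicates 1 and 2 of wild type and replicate 1 of each null genotype. It was no higher than 22.2 elsewhere, so that every group mixed arrays of both kinds.

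Of the 7 genes, 6 were measurable, and none of these passed the test for a difference between genotypes. Hdac4, Hdac5, Hdac6, Hdac7, Hdac9 and Hdac11 each had a probe set above the floor on all 12 arrays, while both probe sets of Hdac10 stayed below it on every array. In limma's fit across all 9662 genes tested, called at a Benjamini-Hochberg adjusted p under 0.05, 0 of the 6 genes passed in Hdac2-null against wild type, where 0.0207% of all genes tested were called. The count was also 0 in Hopx-null (0.0103% of genes called) and in double-null (0.031% called). The fitted fold changes of the 6 genes against wild type ran from 0.879 to 1.12, and the 95% confidence limits of these folds, not adjusted for the number of comparisons, from 0.727 to 1.46. No gene of the family had an unadjusted p under 0.05 (limma) in any of these comparisons. Of all genes tested, 494 (5.11%), 250 (2.59%) and 704 (7.29%) did. With so few genes called at all, the count of 0 is near the background and says nothing particular to the family; the intervals give the size of the differences that 3 arrays a group leave possible.

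**Figure D1:**
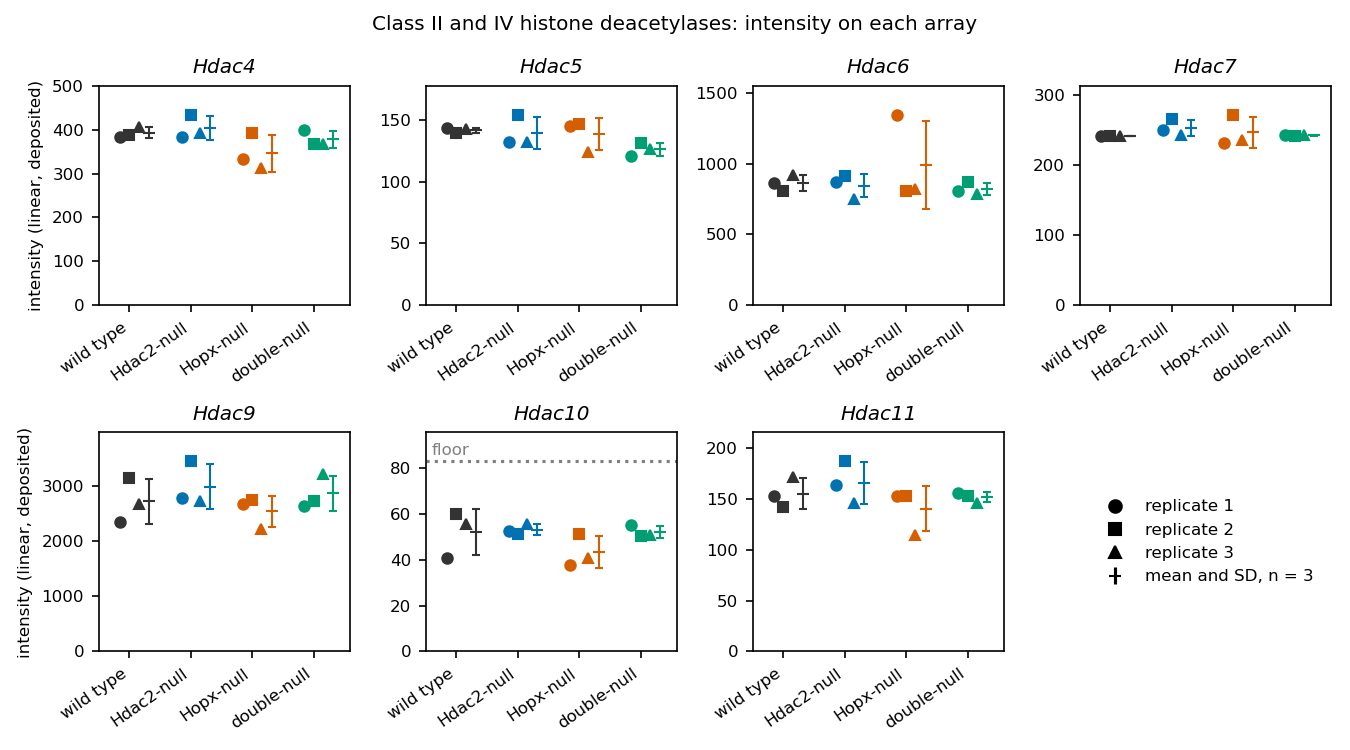
Deposited intensity (linear scale, vertical axis from 0 and different for each gene) of the probe set that represents each gene, on each of 12 arrays by genotype, with the mean and SD of 3 arrays beside the points. The groups overlap for most genes, Hdac6 stands at 1346 on Hopx-null 1, and all arrays of Hdac10 lie below the floor of 82.9 (dotted line).

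Hdac4 was highest as a group in Hdac2-null and lowest in Hopx-null. It read 383, 389 and 407 in wild type, 383, 435 and 394 in Hdac2-null, 334, 394 and 313 in Hopx-null, and 400.4, 368 and 368 in double-null. The ranges of all 4 genotypes overlapped, although 2 of the 3 Hopx-null arrays lay below all other arrays. Against the wild-type mean of 393 ± 12.6 (SD, n = 3), Hopx-null at 347 ± 42.1 (SD, n = 3) gave a log2 fold change of -0.19 (SE 0.11; adjusted p = 1, limma). The 95% interval of that log2 fold change ran from -0.42 to 0.051. Hdac2-null differed from wild type by 0.038 and double-null by -0.056 on the log2 scale, both with the same SE. In the order of the means (Hdac2-null, wild type, double-null, Hopx-null) only the gap of 31.5 between double-null and Hopx-null exceeded the pooled SD of 27.6. The place of Hdac2-null rested on 1 array, since without Hdac2-null 2 its log2 fold change was -0.017, and without Hopx-null 3 that of Hopx-null was -0.12. A second Hdac4 probe set read 61.8 to 104 and was above the floor on 8 of the 12 arrays, so its order of genotypes was not read. The last Hdac4 probe set lay between 4.34 and 4.36 on all arrays, at the bottom of the scale.

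Hdac5 was lowest in double-null, the sole case in the family of a null group that lay wholly below wild type. The values were 143, 139 and 143 in wild type, 132, 155 and 132 in Hdac2-null, 146, 147 and 124 in Hopx-null, and 121, 132 and 127 in double-null. Every double-null array was below every wild-type array, whereas both single nulls overlapped with wild type. The double-null mean of 126 ± 5.49 (SD, n = 3) against 142 ± 2.10 (SD, n = 3) corresponded to a log2 fold change of -0.17 (SE 0.099, 95% interval -0.38 to 0.051; adjusted p = 0.706, limma). In double-null against wild type, ranges that did not overlap, in either direction, were found for 15.4% of all genes tested. Of the 9662 genes, 866 lay wholly below wild type and 620 wholly above, so such a separation was not particular to Hdac5. In the order of the means, the gaps from wild type to Hdac2-null and on to Hopx-null were 2.14 and 0.67, and only the gap of 12.6 between Hopx-null and double-null exceeded the pooled SD of 9.60. Because the tissue is whole ventricle, fewer cells that express a gene and less of its RNA per cell cannot be told apart for this or any other gene here.

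The RefSeq promoter of Hdac5 (250 bases before to 50 after the start site) is shown because class IIa proteins act on MEF2 factors, and it is the sole promoter of the family with a match to the MEF2 site consensus. The match is in capitals, reads on both strands and lies 20 to 11 bases before the start site, in GRCm38.p6 chr11:102230123-102230422 on the minus strand.
Hdac5: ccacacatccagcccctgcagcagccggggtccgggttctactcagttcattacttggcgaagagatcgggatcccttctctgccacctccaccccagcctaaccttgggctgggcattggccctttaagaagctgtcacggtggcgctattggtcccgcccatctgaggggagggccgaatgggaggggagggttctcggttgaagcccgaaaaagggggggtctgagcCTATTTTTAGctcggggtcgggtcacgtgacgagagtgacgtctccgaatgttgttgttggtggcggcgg
RefSeq promoters of 300 bases were at hand for 6 of the 7 genes, 10 promoters in all, and 1 of these 10 held a MEF2 site, against 3.19% of 32851 promoters of the same length. The CArG box, the site of serum response factor, was in 0 of the 10 and in 1.63% of all promoters. The Hdac5 promoter also held the letters CACGTG (7.15% of all promoters, both strands searched) and TGACGT (7.51%), neither of which overlapped the MEF2 match. These matches are letters only, and no binding was measured here.

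Hdac7 varied least over the arrays of the 6 tested genes, with its highest array at 1.17 times its lowest. It read 240.5, 241.0 and 241.3 in wild type, 249.8, 265.3 and 242.2 in Hdac2-null, 231.8, 271.7 and 235.3 in Hopx-null, and 241.9, 241.5 and 242.3 in double-null. The wild-type and double-null groups were each tight, with means of 241 ± 0.404 and 242 ± 0.384 (SD, n = 3 each), and the extremes of the whole set were both Hopx-null arrays. Every Hdac2-null and every double-null array was above every wild-type array, but the double-null range began only at 241.5 where the wild-type range ended at 241.3. In log2 fold change Hdac2-null differed from wild type by 0.066 and double-null by 0.0055 (SE 0.091 for both; adjusted p = 0.951 and 0.999, limma). Non-overlapping ranges, in either direction, were found for 9.89% of all genes in Hdac2-null and 15.4% in double-null. Those wholly above wild type were 384 and 620 of the 9662 genes. Of the 12 arrays, 7 lay within 1% of one another, as close a set as in 66 of the 9662 genes tested (0.683%). A second Hdac7 probe set lay between 4.43 and 4.48 on all arrays.

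Hdac7 is best known from endothelial cells, whose markers were therefore set beside it. All 16 endothelial markers were above the floor on all 12 arrays. Their summed intensity was 26940 to 30330 in wild type, 28590 to 29390 in Hdac2-null, 26850 to 28170 in Hopx-null and 25350 to 26350 in double-null. In double-null, 15 of the 16 had a lower mean than in wild type, with a median log2 fold change of -0.18, and 0 were called. Of all genes tested, 5261 of 9662 had a lower mean there. Hdac7 differed by 0.0055 on the log2 scale, where its SD was 0.00242 in wild type and 0.00229 in double-null. Whether Hdac7 follows the endothelial markers was not tested. The part of cell composition in any of these values was not tested.

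Hdac9 varied more between arrays of one genotype than between genotypes. It read 2350, 3150 and 2667 in wild type, 2785, 3453 and 2727 in Hdac2-null, 2672, 2739 and 2219 in Hopx-null, and 2644, 2724 and 3227 in double-null. All 4 ranges overlapped, and the 3 wild-type arrays alone spanned 2350 to 3150. The means were 2722 ± 403, 2988 ± 404, 2543 ± 283 and 2865 ± 316 (SD, n = 3 each), and none of the 3 gaps between neighbours in their order exceeded the pooled SD of 355. Against wild type, the log2 fold change was 0.14 in Hdac2-null, -0.094 in Hopx-null and 0.079 in double-null (SE 0.13 each; adjusted p = 0.927, 1 and 0.900, limma). The 95% interval in Hdac2-null ran from -0.16 to 0.43. Single arrays moved these values of Hdac9 several-fold: without Hdac2-null 2 the first was 0.028, without Hopx-null 3 the second was 0.0016, and the third was -0.022 without wild type 1 and -0.010 without double-null 3. A second Hdac9 probe set was at 4.90 to 5.05 on all arrays. The Hdac9 transcript that encodes the repressor MITR, which lacks the catalytic domain, cannot be told from the full-length form with these files.

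Of class IIb, Hdac6 lay in 1 range on 11 arrays and far above it on the other. Its values were 864, 804 and 919 in wild type, 869, 914 and 750.4 in Hdac2-null, 1346, 803 and 819 in Hopx-null, and 806, 869 and 786 in double-null. Hopx-null 1 was 1.46 times the next highest array and 1.64 times the median of the other 11, which lay between 750.4 and 919. Hopx-null was thereby first in the order of the means, at 989 ± 309 against 862 ± 57.5 in wild type (SD, n = 3 each), a log2 fold change of 0.16 (SE 0.18; adjusted p = 1, limma). Without Hopx-null 1 that log2 fold change was -0.087, and the ranges of all groups overlapped with it or without it. Among all genes tested, 21 (0.217%) were highest on Hopx-null 1 by at least this ratio, and 173 (1.79%) were on any array.

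Hdac6 is X-linked, so its values were also read against Xist. The 5 arrays with high Xist had Hdac6 at 864, 804, 869, 1346 and 806, and the other 7 at 750.4 to 919, so that the 1 high array had high Xist but the other 4 such arrays lay inside the range of the rest. Of 322 X-linked genes tested, 42 (13.04%) were highest on Hopx-null 1, against 14.4% of all genes tested. With log2 Xist as a covariate, 0 genes of the family were called in any of the 6 comparisons.

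The other class IIb gene, Hdac10, was below the floor on all 12 arrays and was not tested. Its brighter probe set read 40.6, 60.0 and 55.4 in wild type, 52.4, 51.0 and 55.5 in Hdac2-null, 37.8, 51.2 and 40.7 in Hopx-null, and 55.2, 50.4 and 50.6 in double-null. The groups overlapped, and wild type 1 and Hopx-null 1 were among the 3 lowest arrays. Fitted without a floor, the log2 fold changes were 0.046, -0.26 and 0.022 in Hdac2-null, Hopx-null and double-null (SE 0.16; adjusted p = 0.964, 0.99995 and 0.977, limma). A second Hdac10 probe set lay at 4.23 to 4.28 on every array. At this signal a difference of Hdac10 between genotypes was not detectable, which does not show that there is none.

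Hdac11, of class IV, followed the same order of genotypes as Hdac4. It read 153, 142 and 172 in wild type, 164, 187 and 146 in Hdac2-null, 153.3, 153.1 and 115 in Hopx-null, and 156, 153 and 146 in double-null. All ranges overlapped, with the highest array in Hdac2-null and the lowest in Hopx-null. The means were 156 ± 14.97 in wild type, 166 ± 20.6 in Hdac2-null, 140.4 ± 22.1 in Hopx-null and 152 ± 5.05 in double-null (SD, n = 3 each), and none of the gaps between neighbours exceeded the pooled SD of 17.1. The log2 fold change against wild type was 0.090 in Hdac2-null, -0.16 in Hopx-null and -0.032 in double-null (SE 0.14; adjusted p = 0.958, 1 and 0.966, limma). These values rested on single arrays: without Hdac2-null 2 the first was -0.0017, and without Hopx-null 3 the second was -0.017. A second Hdac11 probe set was below the floor on all arrays, at 11.3 to 14.9.

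**Figure D2:**
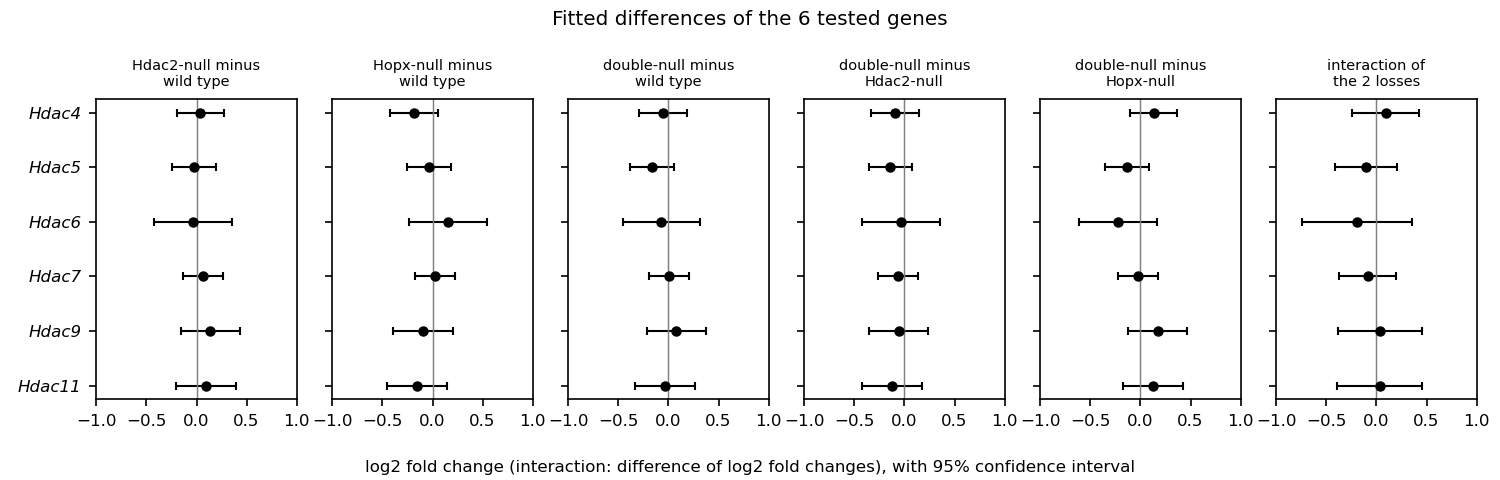
Log2 fold change (horizontal axis) of the 6 tested genes in each of 6 comparisons, as fitted by limma over 12 arrays; bars are 95% confidence intervals, and the last panel gives the difference of log2 fold changes that measures the interaction. Every interval includes 0, and those of Hdac6 are the widest.

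Adding the loss of one gene to the loss of the other gave no call in the family either. All 6 genes had a lower mean log2 level in double-null than in Hdac2-null, as did 4958 of the 9662 genes tested. The values ran from -0.038 for Hdac6 to -0.14 for Hdac5, with a median of -0.077 against -0.0045 over all genes tested. Hdac5 gave the smallest adjusted p of these (0.618, limma), and its 95% interval ran from -0.36 to 0.077. Without Hdac2-null 2 the value of Hdac5 was -0.065, and those of Hdac6 and Hdac9 were above 0, at 0.021 and 0.051. Against Hopx-null, Hdac4, Hdac9 and Hdac11 were higher in double-null by 0.13, 0.17 and 0.12 on the log2 scale, and Hdac5, Hdac6 and Hdac7 lower by values of -0.13, -0.23 and -0.022. Leaving out 1 array turned 3 of these directions: Hdac11 was -0.014 without Hopx-null 3, Hdac6 0.016 without Hopx-null 1, and Hdac7 0.051 without Hopx-null 2. Without Hopx-null 3 the values of Hdac4 and Hdac9 were 0.061 and 0.077. The comparisons with Hdac2-null and with Hopx-null share the double-null arrays. Of the 6 genes 0 were called in either comparison, where 0.0103% and 0.0207% of all genes were called. An unadjusted p under 0.05 (limma) was found for 1094 (11.3%) and 784 (8.11%) of all genes. The interaction of the 2 losses was likewise called for 0 of the 6 genes, and for 0% of all genes tested (limma). There, 397 genes (4.11%) had an unadjusted p under 0.05. The largest interaction in the family was -0.20 for Hdac6 (SE 0.25), which was 0.049 without Hopx-null 1.

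Fitted over all 15708 single-gene probe sets that passed the same filter, 7 of the 13 probe sets were tested and 0 were called in each comparison. The background was 0.0191%, 0.0127% and 0.0382% of probe sets in Hdac2-null, Hopx-null and double-null against wild type, 0.0127% and 0.0191% in double-null against Hdac2-null and Hopx-null, and 0% for the interaction. The smallest adjusted p of any of these probe sets was 0.583 (limma), in double-null against Hdac2-null. The 6 that were not tested were below the floor on all 12 arrays. Of the 6 tested genes 4 had more than 1 probe set, and a further one was readable for Hdac4 alone, on 8 of 12 arrays.

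Several genes of the family had their highest or lowest value on the same arrays. Hdac2-null 2 was the highest array for Hdac4, Hdac5, Hdac9 and Hdac11, 4 of the 6 tested genes, and 12.8% of all genes tested were highest there. Hopx-null 3 was the lowest for Hdac4, Hdac9 and Hdac11, 3 of 6, against 10.8% of all genes. These 3 genes were at both extremes on the same pair of arrays, as were 267 of the 9662 genes (2.76%). Hdac2-null 2 had the lowest median correlation with the other arrays, 0.984. Of the marker lists, fibroblast genes (9 of 9 above the floor on all arrays) had their lowest summed intensity on Hdac2-null 2, 76480, and their highest on Hopx-null 3, 87980, against 79570 to 85780 on the other arrays. Leukocyte genes (5 of 10 above the floor on all arrays, 5 below it on all) also had their lowest sum on Hdac2-null 2. That sum was 10960 against 11680 to 17700 elsewhere, with 15700 on Hopx-null 3. C1qb was lowest on Hdac2-null 2, at 5857, whereas Csf1r, Fcer1g and Tyrobp were lowest on other arrays. Lyz2 went the other way, with its highest value on Hdac2-null 2 (407.6) and its lowest on Hopx-null 3 (109.8). Ventricular cardiomyocyte genes (13 of 13 above the floor) had their highest sum on Hopx-null 3, 323700, and were at 313700 on Hdac2-null 2, within a range of 313600 to 323700. Summed erythroid markers were highest on Hdac2-null 1 and Hdac2-null 2, at 1619 and 1232 against 202 to 758 elsewhere. The sum on Hopx-null 3 was 256. Of 6 such markers, 0 were above the floor on all arrays and 3 were below it on all. On Hdac2-null 1 and Hdac2-null 2, Hbb-y alone read 1209 and 985. On Hdac2-null 2, Alas2 (153.5) and Slc4a1 (79.3, below the floor) lay inside their ranges on the other arrays. All 6 neural and Schwann cell markers were below the floor on Hdac2-null 2 and Hopx-null 3. Summed liver markers were at 151 on Hdac2-null 2 and 36.4 on Hopx-null 3, and were highest on Hdac2-null 3, at 580. The part of these differences in the family's values was not tested.

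**Figure D3:**
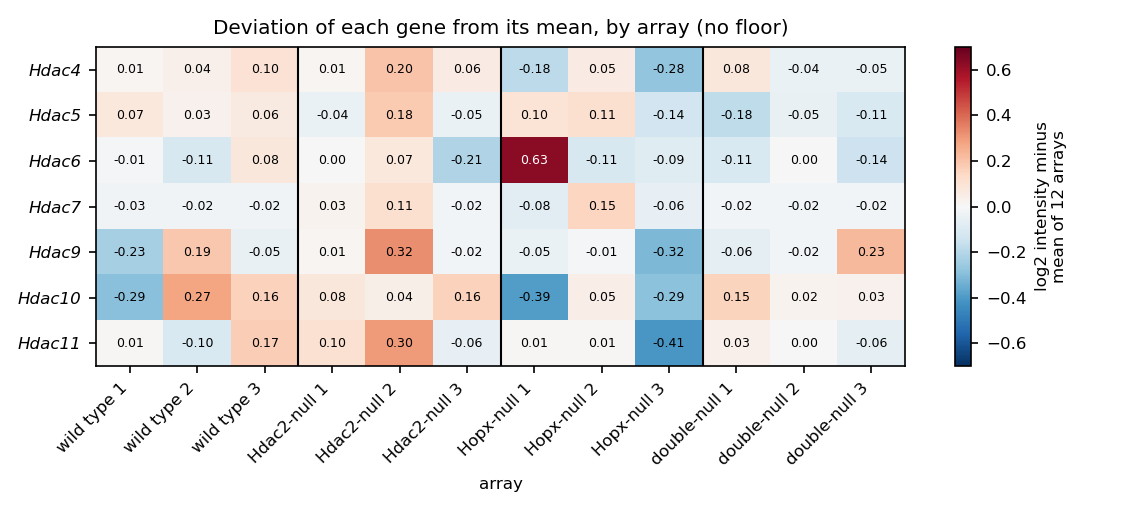
Deviation of log2 intensity, without a floor, from the gene's mean over 12 arrays (colour scale and printed value) for 7 genes (rows) on each array (columns, grouped by genotype). Hdac2-null 2 is above the mean for all 7 genes and Hopx-null 3 below it for all 7, and the largest single deviation, 0.63, is Hdac6 on Hopx-null 1. The 7 include Hdac10, which was below the floor on all 12 arrays. The share of all genes with these directions was not counted.

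Of 15 pairs of the 6 tested genes, Hdac4 and Hdac11 were the most closely correlated over the 12 arrays (Pearson r = 0.793, permutation p = 0.0032, 0.048 after adjustment over the 15 pairs; Spearman rho = 0.608, permutation p = 0.039, adjusted 0.195). Leaving out Hopx-null 1 and Hopx-null 3, the arrays farthest from the Hdac4 median, gave r = 0.742, and within genotypes r was 0.703. Within genotypes it was not the closest pair, since Hdac4 with Hdac7 gave r = 0.846 and Hdac5 with Hdac11 r = 0.818. Without Hdac2-null 2 and Hopx-null 3, r of Hdac4 and Hdac11 was 0.252. These arrays are the highest and the lowest for Hdac4, Hdac9 and Hdac11 alike. Leaving out shared extremes tends to lower r by the choice itself, so the lower values do not decide what the relations rested on. The correlation of Hdac9 with Hdac11 was 0.543 over all arrays (permutation p = 0.066, adjusted 0.199; Spearman rho = 0.0839) and -0.468 without the same pair. No other pair had an adjusted permutation p under 0.05 by Pearson r, and no pair had one by Spearman rho. The permutations moved values among all 12 arrays without regard to genotype, so differences between genotypes enter these p values.

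The RefSeq promoters of Hdac4 and Hdac11 are given because these had the highest Pearson r over all 12 arrays, though not within genotypes. Capitals mark the GC box (GGGCGG) and the CCAAT box (CCAAT), searched on both strands, the latter reading ATTGG on the other strand. The windows are GRCm38.p6 chr1:92180292-92180591 on the minus strand and chr6:91156565-91156864 on the plus strand.
Hdac4: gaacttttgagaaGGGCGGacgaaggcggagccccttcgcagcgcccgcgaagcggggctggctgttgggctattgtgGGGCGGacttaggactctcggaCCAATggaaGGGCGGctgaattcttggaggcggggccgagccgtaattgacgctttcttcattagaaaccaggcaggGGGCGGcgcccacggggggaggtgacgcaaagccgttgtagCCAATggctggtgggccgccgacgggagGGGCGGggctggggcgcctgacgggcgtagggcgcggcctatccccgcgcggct
Hdac11: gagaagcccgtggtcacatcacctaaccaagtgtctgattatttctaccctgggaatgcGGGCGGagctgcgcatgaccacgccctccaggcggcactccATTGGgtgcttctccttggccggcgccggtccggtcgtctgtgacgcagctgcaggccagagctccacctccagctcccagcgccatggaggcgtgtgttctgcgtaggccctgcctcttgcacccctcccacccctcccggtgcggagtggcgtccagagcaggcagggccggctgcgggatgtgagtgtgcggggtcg
Hdac4 held 5 GC boxes and 2 CCAAT boxes, and Hdac11 held 1 of each. GC boxes were in 5 of the family's 10 promoters and in 35.7% of all promoters, and CCAAT boxes in 4 of 10 and 37.4%. Both kinds of match also stood in the Hdac5 and Hdac6 promoters, and neither stood in the 2 promoters of Hdac9, of which 1 instead held the letters TATAAA at 29 to 24 bases before the start site (13.6% of all promoters).

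The genes whose pattern over the 12 arrays was most like that of each member were found among 8972 genes above the floor on all arrays, by Pearson r of log2 intensity, which is given as a description. For Hdac4 these were Wdr19 (r = 0.941), Ppdpf (r = 0.907) and Cap2 (r = 0.895). Wdr19 was 118 on Hopx-null 3 and 507 on Hdac2-null 2, the same extremes as Hdac4. For Hdac5 they were Zfp9 (r = 0.924), H2az2 (r = 0.920), a histone variant gene, and Ints4 (r = 0.917). H2az2 read 3642 to 4821, with its highest value on Hdac2-null 2. For Hdac7 they were Fzr1 (r = 0.872), Wdr45 (r = 0.866) and Zbtb11os1 (r = 0.855), all highest on Hdac2-null 2 or Hopx-null 2. Hdac9 was followed most closely by Nipal3 (r = 0.863), Mtmr14 (r = 0.844) and Cln6 (r = 0.829), and Hdac11 by Zfp618 (r = 0.950), Plppr1 (r = 0.941) and Limd2 (r = 0.933). For Hdac6 they were Serhl (r = 0.940), Eif1ax (r = 0.926), an X-linked translation factor gene, and Cbx2 (r = 0.915), of the Polycomb group. Serhl was 775 on Hopx-null 1 and 556 to 616 on the other arrays, and Eif1ax was 9906 against 8300 to 8795, so that the likeness to Hdac6 came with the same single array.

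No gene of the class IIa pathway was called. Of the MEF2 factors, Mef2a, Mef2c and Mef2d were tested and 0 were called in any comparison, with median log2 fold changes of -0.0049, -0.045 and 0.0072 in Hdac2-null, Hopx-null and double-null, beside -0.014, -0.0025 and -0.014 over all genes. Mef2a had the smallest p in Hdac2-null, with a log2 fold change of 0.082 (SE 0.040; adjusted p = 0.927, limma). Mef2d had the smallest p in both other groups, at -0.13 in Hopx-null and -0.18 in double-null (SE 0.10; adjusted p = 1 and 0.696). Mef2b was at 3.99 to 4.02 on all arrays.

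Among 16 tested kinases that phosphorylate class IIa proteins or act upstream, 0 were called, and 12, 7 and 9 had a higher mean than wild type in Hdac2-null, Hopx-null and double-null. Of all genes tested, 44.2%, 48.3% and 44.8% had a higher mean in these groups. Grk5, a receptor kinase of the heart that can phosphorylate Hdac5 in the nucleus, read 1699, 1746 and 1737 in wild type, 2103, 2221 and 2100 in Hdac2-null, 1943, 1556 and 1496 in Hopx-null, and 2295, 2092 and 1983 in double-null. All 6 arrays without Hdac2 were above the 3 wild-type and the 3 Hopx-null arrays, as they were for 35 of the 9662 genes tested (0.362%); Grk5 is named as the kinase of smallest p, so this is a description. Against wild type, Hdac2-null gave a log2 fold change of 0.31 and double-null one of 0.29 (SE 0.098; adjusted p = 0.898 and 0.653, limma), neither of which passed. Camk1, a calcium-dependent kinase, had the smallest p in Hopx-null, with a log2 fold change of -0.23 (SE 0.11; adjusted p = 1).

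Of 6 tested 14-3-3 genes, which encode the proteins that hold phosphorylated class IIa members in the cytoplasm, 2 had a higher mean than wild type in Hdac2-null, 3 in Hopx-null and 5 in double-null, and 0 were called. The genes of smallest p were Ywhag (-0.13 in Hdac2-null), Ywhae (-0.023 in Hopx-null) and Ywhaz (0.19 in double-null, adjusted p = 0.741, limma). The 6 tested genes of phosphatase PP2A and of nuclear export had 0 calls, with medians of 0.0050, -0.058 and 0.0050. Their genes of smallest p were Ppp2r1a (-0.051), Xpo1, the export receptor (-0.10), and Ppp2ca (0.047) in the same order of groups.

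Corepressors and MEF2 target genes were spread to both sides of 0. Of 9 tested corepressor genes, 5, 4 and 4 had a higher mean and 0 were called. Bcl6, a repressor that binds corepressors also used by class IIa proteins, read 491, 436 and 268 in wild type and 269, 253 and 291 in Hdac2-null, overlapping on the third wild-type array, with a log2 fold change of -0.51 (SE 0.19; adjusted p = 0.898, limma). Cbx5 had the smallest p in Hopx-null (-0.054) and Ctbp1 in double-null (-0.11). Of 13 tested MEF2 target genes, 7, 8 and 6 had a higher mean, with medians of 0.011, 0.017 and -0.021, and 0 were called. Smyd1, a muscle methyltransferase, had the smallest p in Hdac2-null (-0.17), Xirp1 in Hopx-null (0.083) and Ckm, muscle creatine kinase, in double-null (-0.20; adjusted p = 0.672, limma).

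The lists around class IIb and the sirtuins held no call either. Of 11 tested genes of tubulin acetylation and of Hdac6 partners, 9 had a lower mean than wild type in Hdac2-null, 4 in Hopx-null and 7 in double-null. Vcp, the ubiquitin-dependent segregase that works with Hdac6 and Plaa, read 5120, 3756 and 3303 in wild type and 3350, 3016 and 2747 in double-null, overlapping at the low end of wild type. Its log2 fold change was -0.40 in double-null (SE 0.14; adjusted p = 0.663, limma) and -0.22 in Hdac2-null. Plaa had the smallest p in Hopx-null (0.19). Of 7 tested polyamine genes, beside the unmeasured Hdac10, 6, 3 and 4 had a higher mean, with Oaz1 (-0.033), Oaz2 (-0.049) and Smox, spermine oxidase (0.60, SE 0.34), of smallest p in the same order. Smox read 145 on wild type 1 and 327 and 458 on the other wild-type arrays, against 411 to 434 in double-null. Of 7 tested sirtuins, the NAD-dependent deacetylases of class III, 6 had a lower mean in Hdac2-null, 3 in Hopx-null and 4 in double-null, and the genes of smallest p were Sirt5 (-0.20), Sirt4 (-0.12) and Sirt5 (-0.17). Of the class I genes tested, Hdac2 itself was called lower in Hdac2-null and double-null, and neither Hdac1 nor Hdac3 was called in any comparison.

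**Figure D4:**
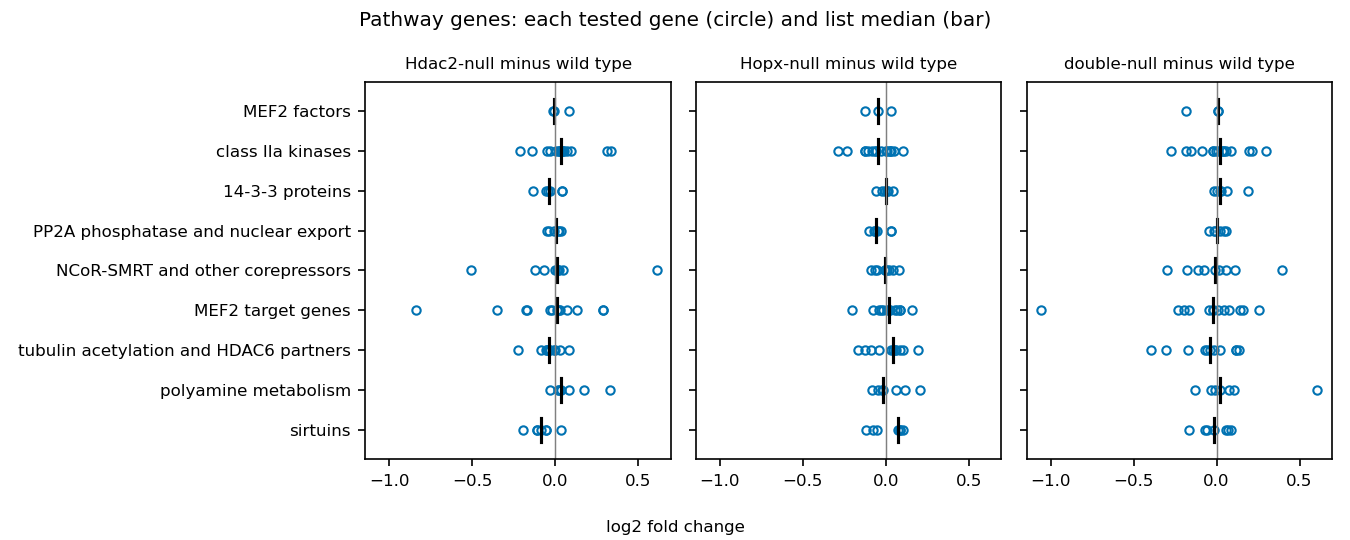
Log2 fold change against wild type (horizontal axis) of every tested gene (circle) of 9 pathway lists (rows) in each of the 3 null groups (panels), with the list's median as a bar. The medians lie close to 0, and no gene shown passed an adjusted p under 0.05.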

How the data were processed

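RNA of 12 ventricles was hybridised to single-colour Affymetrix arrays. Linear intensities of 45101 probe sets on each array were taken as deposited by the authors, and were not normalized further. MAS5 is named without a version, per the submitters' processing notes, and no source used here says whether it made these values. Platform annotation gave 34958 probe sets 1 gene, 932 several and 9211 none. For 34754 single-gene probe sets the symbol was taken from the RefSeq gene table of GRCm38.p6, the assembly of the promoters. How many symbols changed was not counted. The floor was applied before log2 transformation, and understates differences of genes near it.

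Each gene was represented by its probe set of highest mean log2 signal. Genes under the 40th percentile of all probe sets (4.76 units), or at the floor on all arrays, were left out, which kept 9662. A linear model with a coefficient for each genotype was fitted to the 12 arrays (8 residual degrees of freedom) with limma 3.58.1 in R 4.3.3. It used moderated tests on an intensity trend and Benjamini-Hochberg adjustment over all genes. The fit was also run on simulated data, whose outcome is not given here. The simulated noise was independent between genes and held no deviations shared by arrays. Log2 fold changes had a median SE of 0.11, and the number of arrays limits the precision. The 7 genes and all lists were chosen with earlier results of these data known. All probe sets of the 7 genes were named, and of each pathway list the gene of smallest p in each null group against wild type.

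Same-numbered arrays deviated together in wild type and Hopx-null (r across genes of 0.423, 0.419 and 0.154) and in Hdac2-null and Hopx-null (0.206, 0.170 and 0.122), each above 0.1. Hdac2-null and double-null were also positive for every number (0.251, 0.0962 and 0.254), and each of the other 3 pairs of groups had at least 1 negative value, such as 0.330, -0.253 and -0.149 for wild type and Hdac2-null. No source used here says what the numbers mark. Alternatives changed the floor, normalization, filter, choice of probe set, variance model, array weights, replicate block, Xist covariate and arrays included.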

Additional observations from a re-analysis of the deposited data

How the results depend on the processing

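No gene or probe set of the family was called in any of 292 combinations of a comparison and an alternative, and the smallest adjusted p of any was 0.333 (limma), for a probe set in double-null against Hdac2-null with array weights. Of 894 values recomputed, 885 moved by less than the spread between replicates, 9 moved by more and 45 changed sign, all over 36 log2 fold changes that were not called. The 9 that moved were those of Hdac6 without Hopx-null 1 (with wild type 1 left out too, an alternative chosen after seeing the data, or not) and of Hdac7 without Hopx-null 2. For Hdac7 in Hopx-null against wild type this gave -0.045 in place of 0.028. With the replicate number as a block the log2 fold change of Hdac5 in double-null stayed at -0.17 (adjusted p = 0.611, limma), and the block changed no call.

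Counts of called genes over the whole table were less stable. Double-null against Hdac2-null went from 1 gene to 957 with array weights (2 to 1473 probe sets), with no gene of the family among them; the cause was not tested. Without wild type replicate 3, double-null against wild type went from 3 genes to 8 (6 to 13 probe sets), Hdac2-null from 3 to 13 probe sets, and the interaction from 0 to 1 gene (0 to 2 probe sets). Hdac2-null went from 2 genes to 4 without a floor and to 1 with the mean of a gene's probe sets, and Hopx-null from 1 to 2 without a floor. Without wild type 1 and Hopx-null 1, double-null against Hopx-null went from 2 genes to 4 (3 to 9 probe sets) and Hopx-null from 2 to 4 probe sets. With a floor at 0.5 times its value, double-null against wild type had 2 genes. Between 9491 and 12434 genes were tested, and 6 or 7 of the family. Signal limits what can be read of Hdac10 and of 6 probe sets.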
